A study of Mus musculus with 4 samples.

Results

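Border macrophages are the macrophages that sit along the vessels and membranes of the brain rather than in its parenchyma, and those described here carried almost no transcripts of MHC class II. They were 139 cells of 15434 barcodes in droplet-based single-cell RNA sequencing of mouse cortex. The mice were male C57BL/6N animals aged 10 months. Sham-operated mice received an isotype control antibody for 10 weeks (called sham here), and mice with a stroke from dMCAO, occlusion of the distal middle cerebral artery, received for 10 weeks either that isotype control (the stroke control), an antibody to VCAM1 or one to VLA4. Each of these 4 groups was 1 library, made from tissue of 4 to 5 mice that was pooled before dissociation. The tissue was the lesion core with about 2 mm of cortex around it, and the labels give the same tissue name for sham. A group without a second library allows no test, so each difference described is one between libraries. Intervals are at the 95% level and reflect counting error alone, not the spread between mice or cells.

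In rodents, border macrophages include perivascular, meningeal and choroid plexus cells. They take up material from fluid and vessel walls through receptors such as the mannose receptor (Mrc1), CD163 and stabilin-1 (Stab1). They are commonly divided into a form that is low in MHC class II and often carries Lyve1, which is long-lived and largely maintained without blood monocytes, and a form that is high in MHC class II and can be renewed from monocytes that carry Ccr2. MHC class II proteins present peptides to CD4 T cells, Ciita is their master regulator, and Cd74 is the chain that escorts them to the lysosome. VCAM1 is an adhesion molecule of activated endothelium and some macrophages, and VLA4, the pair of Itga4 and Itgb1, is its integrin partner on leukocytes.

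Members were chosen by their own measured UMIs (unique molecules counted). Among barcodes of 500 UMIs or more that had 200 genes or more and no more than 10% of UMIs from mitochondrial genes, a member was one in which Mrc1, Pf4, F13a1 and Ms4a7 together gave 5 UMIs or more, 3 microglial genes (P2ry12, Tmem119, Olfml3) gave under 5, the 5 endothelial genes Pecam1, Flt1, Cdh5, Cldn5 and Ly6c1 gave under 10, and H2-Aa, H2-Ab1 and H2-Eb1 together gave under 5. This gave 33 members in sham, 60 in the stroke control, 17 in anti-VCAM1 and 29 in anti-VLA4. Barcodes that passed all but the last part, with 5 or more MHC class II UMIs, are called MHC class II high border macrophages, and there were 46, 61, 25 and 34 of them. The levels of these marker genes in the members follow from the choice and are descriptions.

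The MHC class II sum of the 305 border macrophages ran from 0 UMIs, in 112 cells, to 100 or more, in 100 cells. The rest lay at levels between, 23 of them at 20 to 49 UMIs and 21 at 50 to 99. The rule cut on this sum, which was not scaled to depth, so its spread is a description. Of the members, 112 had no MHC class II UMI at all, while the median in the high cells was 166 UMIs in sham, 131 in the stroke control, 104 in anti-VCAM1 and 127.5 in anti-VLA4. Just inside the limit, 27 members had 1 to 4 UMIs, and just outside it 22 cells had 5 to 19. The 22 cells outside stood between the members and the rest of the high cells, with Mrc1 at 1753 CPM (UMIs of the gene per 1000000 UMIs of the class), Stab1 at 812 and Cd74 at 2647. Members with 1 to 4 UMIs had Mrc1 at 3020 CPM, Stab1 at 1745 and Cd74 at 619. The 144 cells with 20 or more had Mrc1 at 892 CPM, Stab1 at 209.5 and Cd74 at 19882.

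**Figure D1:**
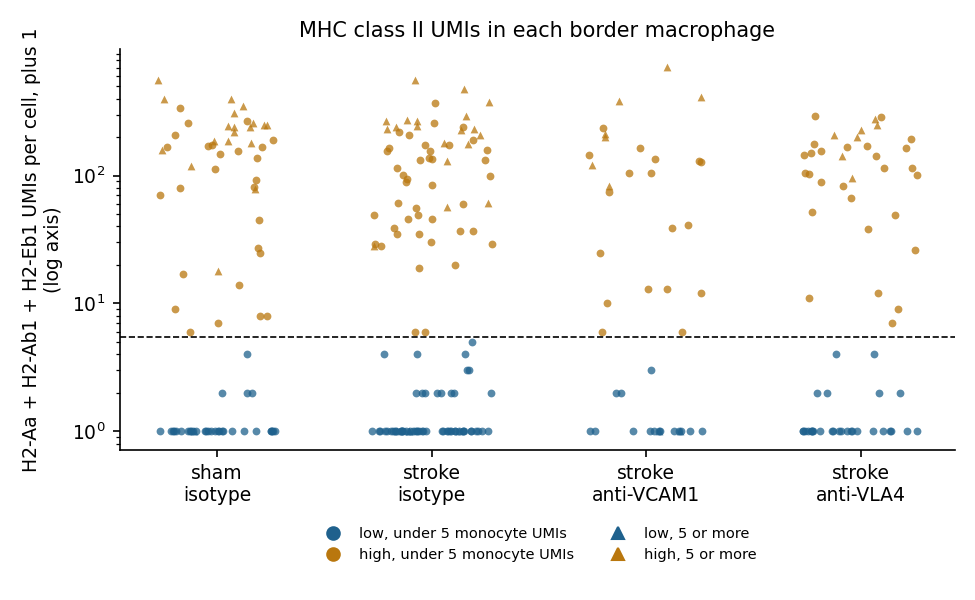
Sum of H2-Aa, H2-Ab1 and H2-Eb1 UMIs in each border macrophage (plus 1, log axis), by library. Each point is 1 cell, blue points are members and orange points are MHC class II high cells, triangles held 5 or more monocyte marker UMIs, and the dashed line is the limit under 5 UMIs. In each library the points run from no UMI to 100 or more, with some cells between.

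The presence of the rule's own genes in members follows from the choice. Of the 139 members, 85 held UMIs of all 4 border markers, 31 of 3, 12 of 2 and 11 of 1. Mrc1 was found in 90.6% of members, F13a1 in 90.6%, Ms4a7 in 79.9% and Pf4 in 75.5%. The label was checked against 10 border markers that the rule did not use, such as Stab1, which was found in 88.5% of members. Each of the 10 had UMIs in members of every library. At least 1 of them was found in 32 of 33, 55 of 60, 15 of 17 and 29 of 29 members. The same was so in 45 of 46, 60 of 61, 25 of 25 and 32 of 34 high cells. In microglia by the rule it was so in 382 of 582, 711 of 1168, 826 of 1472 and 1093 of 1953. Stab1 alone was found in 52.2% to 62.4% of those microglia. Presence of 1 marker therefore does not set members apart. Summed over the 10, these markers stood at 3066 to 7003 CPM in members and 870 to 1531 CPM in high cells. They stood at 157 to 169.8 CPM in microglia by the rule and 106 to 139 CPM in endothelial barcodes. Median UMI counts were 5993 to 8507 in those microglia and 3931 to 4591 in endothelial barcodes. Sall1, which defines microglia, had no UMI in members of any library. Markers of T, NK and B cells, fibroblasts and neurons had 0 to 2 UMIs summed over members in each library. Other types were not absent. In sham, the stroke control, anti-VCAM1 and anti-VLA4, dendritic cell markers had 61, 80, 25 and 29 UMIs over members. In the same order, 2, 3, 3 and 1 members held 5 or more of these. Neutrophil markers had 14, 38, 13 and 16 UMIs, and oligodendrocyte markers 7, 7, 5 and 3. In sham, 1 member held all 86 pericyte marker UMIs, with 5 of 5 markers detected, and 2 members held the 14 platelet marker UMIs. Markers of microglia outside the rule summed to 1124, 1344, 2070 and 1639 CPM over members, in the order sham, the stroke control, anti-VCAM1, anti-VLA4, and their part in the results was not tested.

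For 7 members the monocyte markers went against the label. These 7 cells, 1 in sham, 4 in the stroke control, 2 in anti-VCAM1 and 0 in anti-VLA4, each held 5 or more UMIs of the 7 monocyte markers (Ly6c2, Plac8, Ccr2, Chil3, Vcan, Hp, F10). Mrc1, Pf4, Stab1, Dab2, Cd163, Lyve1 and C1qa had no UMI in any of them, and they met the rule through F13a1, at 1808 CPM, a gene that blood monocytes also express. Their median depth was 10122 UMIs against 3880 for all members, so they weighed more in sums than their number. Lyz2 stood at 26862 CPM in them against 3653 CPM in the other 132 members, S100a6 at 4151 against 29.0 CPM and Plac8 at 1562 against 0. The other 132 members had Mrc1 at 3873 CPM, Dab2 at 2353, C1qa at 4176 and Apoe at 18742, and they had no Plac8, Ly6c2 or Chil3 UMI. Among these 132, a sham member of 4286 UMIs and a stroke control member of 2935 UMIs likewise had no Mrc1, Stab1 or Dab2 UMI. The sham member with 86 pericyte marker UMIs, named above, was kept. Where leaving out cells with 5 or more monocyte UMIs ended the call of a gene named below, its value without them is given. Monocyte markers were also found in the high class, in which 19 of 46, 19 of 61, 7 of 25 and 7 of 34 cells held 5 or more such UMIs.

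**Figure D2:**
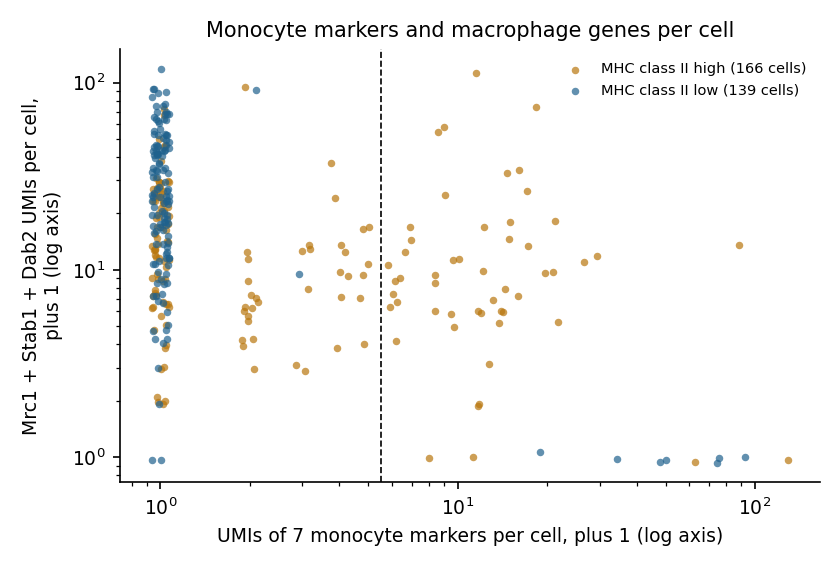
UMIs of the monocyte markers other than F10 (horizontal, plus 1, log axis) against the sum of Mrc1, Stab1 and Dab2 UMIs (vertical, plus 1, log axis). Points, slightly spread, are 139 MHC class II low (blue) and 166 high (orange) border macrophages. The axis title names 7 markers, but F10 is not in the sum drawn. The dashed line marks 5 UMIs. The 7 blue points to its right lie at 0 on the vertical axis.

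Depth differed between the classes. Median UMI counts of members were 3047 in sham, 3917 in the stroke control, 4816 in anti-VCAM1 and 3794 in anti-VLA4, against 7889.5, 6995, 5687 and 6460 in the high class. Summed UMIs of members were 135234, 256765, 87424 and 107382. Median mitochondrial shares of members were at most 1.80%, and Scrublet, a doublet caller, marked 9 to 124 barcodes per library and 0 members. The sham and stroke isotype libraries shared 59 barcode sequences, against 1 to 8 for the other pairs, and 1 member of the stroke control was among them. Leaving out every shared sequence kept the shares and gene counts below within their intervals or within 1.5 times.

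Members differed among themselves in Lyve1, a hyaluronan receptor. It was found in 52 of 139 members, 37.4% (exact interval 29.4% to 46.0%), which was 14 of 33 in sham, 22 of 60 in the stroke control, 2 of 17 in anti-VCAM1 and 14 of 29 in anti-VLA4. After thinning each cell to 1000 UMIs the shares were 30.0%, 23.2%, 12.5% and 25.9%, with 3, 4, 1 and 2 shallower members left out, so the anti-VCAM1 library was lowest on both scales, on 2 cells. The exact interval of its thinned share, 1.55% to 38.3%, overlapped the others. Among high cells the thinned share was 0% in each library, and over all libraries 1 microglia barcode and 4 endothelial barcodes held a Lyve1 UMI. The 52 members with Lyve1 had Cd209f at 679 CPM against 176 CPM in the 87 without, Folr2 at 355 against 86.5, Cd163 at 731 against 285, and Mrc1 at 5167 against 2302. The 87 cells include the 7 with monocyte markers. C-type lectins of the Cd209 family were found in 44.6% of members and Cd163 in 48.9%.

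Set against MHC class II high border macrophages, members held more transcripts of uptake receptors such as Stab1 and Colec12 and less of Cd74, Ciita and other genes of MHC class II presentation, 5 of 10 measured. A gene is called here if it differed at least 2-fold in the same direction in every one of the 4 libraries, among 5278 genes with at least 50 UMIs. Of these, 129 were higher in members (2.44%) and 99 lower (1.88%), and the median log2 ratio over all 5278 was 0.24. The split was made on MHC class II UMIs of the same cells, so all of this is description. With cells of 5 or more monocyte UMIs left out of both classes, 3979 genes had enough UMIs, and 72 were called higher and 55 lower. Of these, 61 and 46 were among the first sets. Leaving out the anti-VCAM1 library, the one with fewest cells, gave 202 and 150.

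Border genes outside the rule stood highest. Of 18 measured, 8 were higher in members in every library and 1 lower, with a median log2 ratio of 1.94, against 7, 0 and 2.11 without the monocyte-rich cells. Lyve1 was at 391.9, 389, 172 and 670.5 CPM in members of sham, the stroke control, anti-VCAM1 and anti-VLA4, and at 31.8, 0, 5.12 and 0 CPM in the high cells. No high cell library reached the lowest member library, though how many other genes show this was not counted. Over all libraries the level was 32.8-fold higher in members. The lectin Cd209f was at 481, 241, 149 and 726 CPM in members and 43.1, 13.6, 25.6 and 96.3 in high cells, or 9.13-fold higher over all libraries. Folr2, a folate receptor, was 12.3-fold higher and Cbr2, a carbonyl reductase, 7.92-fold. Stab1, which clears modified lipoproteins, was at 1782, 1784, 972 and 1900 CPM against 209, 274, 256 and 333, or 6.47-fold higher. Cd163, the receptor for haemoglobin bound to haptoglobin, was 5.98-fold higher over all libraries but is not among the 8, since it was 1.99-fold higher in anti-VLA4. Mgl2, a lectin of dendritic cells and some macrophages, was the one border gene lower in members in all 4 libraries, 6.85-fold over all libraries, with a log2 ratio of -2.78 that came to -1.55, no longer called, without monocyte-rich cells.

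Other uptake and tissue-upkeep genes followed. Of 10 scavenger and efferocytosis receptors measured, 4 were higher in members and 0 lower: Stab1, the scavenger receptors Colec12 (8.96-fold) and Msr1 (4.25-fold), and Mertk, which binds dying cells through Gas6 (4.50-fold). Without monocyte-rich cells 3 were called, and Msr1, at 2.99-fold, was not. Gas6 itself was at 503, 534, 355 and 568 CPM in members against 104, 127, 148 and 206 in high cells, 3.69-fold higher, or 2.41-fold and not called without monocyte-rich cells. Igf1, a growth factor, was at 303, 354, 320 and 233 CPM against 45.4, 56.6, 66.6 and 61.3, 5.64-fold higher. In both genes the lowest member library lay above the highest high cell library, but how many of the 5278 genes did so was not counted. Of 10 heme and iron genes, 3 were higher: Hmox1, which breaks down heme (3.30-fold), the iron exporter Slc40a1, and Ncoa4, which releases iron from ferritin. Without monocyte-rich cells 1 of 10 was called, Slc40a1, while Hmox1 was 2.78-fold and Ncoa4 3.25-fold higher over all libraries without reaching 2-fold in each. Of 9 complement genes 3 were higher, or 2 of 8 without monocyte-rich cells, among them C4b (4.61-fold) and the C5a receptor C5ar1 (3.89-fold). The C1q genes C1qa, C1qb and C1qc differed by log2 ratios of 0.30, -0.16 and 0.32 only. Of 17 macrophage transcription factors measured, Maf alone was called, 3.09-fold higher, and of 16 lysosome genes the cathepsins Ctsb and Ctsl, 2.59-fold and 3.11-fold. These 3 calls were lost without monocyte-rich cells, which left Maf at 2.29-fold, Ctsb at 2.13-fold and Ctsl at 2.45-fold over all libraries.

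Genes that led the list outside these groups included P2rx7, an ATP-gated channel, at 3054, 1994, 1887 and 3632 CPM in members against 302, 90.6, 143 and 411 in high cells, 11.1-fold higher. The predicted gene Gm17268 was 9.49-fold higher and is reported as uncertain. Hgsnat, a lysosomal acetyltransferase, was 10.8-fold higher. Ccl24, an eosinophil attractant, was at 791, 401, 274.5 and 1332 CPM against 63.5, 40.8, 15.4 and 8.75, 16.1-fold higher. In anti-VLA4, 1 member held most of the Ccl24 UMIs.

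Genes of MHC class II presentation outside the rule were lower in part. Of 10 measured, 5 were lower in members in every library and 0 higher, with a median log2 ratio of -1.96, and without monocyte-rich cells 4 of 8 with a median of -2.47. Cd74 was at 66.6, 206, 91.5 and 447 CPM in members against 15780.3, 20305, 18455 and 20018 in high cells, 91.3-fold higher in the latter. Ciita, with 5 UMIs in all members, was 20.6-fold and H2-DMb1, which helps load peptides, 13.8-fold higher in the high cells. Ciita was not called without monocyte-rich cells, at 13.6-fold. Ctss, a protease of the same pathway, and Cd86, a costimulator, did not follow: log2 ratios of members over high cells were -0.60 and 1.25. Class I genes were not called in either direction, with a median of -0.49 over 14, and 1 of 11 was lower without monocyte-rich cells. Ccr2 was at 51.8, 152, 91.5 and 0 CPM in members against 554, 523, 512 and 354, with a log2 ratio of -2.44 that came to -4.03 without monocyte-rich cells, where it was not called in every library. In the 132 members with fewer than 5 monocyte UMIs, Ccr2, the receptor for Ccl2, was at 5.80 CPM (3 UMIs). The cytokine gene Il1b was 3.88-fold higher in high cells over all libraries, but in anti-VLA4 its log2 ratio was -0.71. Among 13 inflammatory genes 1 was called higher in members and 2 lower, with a median of -0.96.

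**Figure D3:**
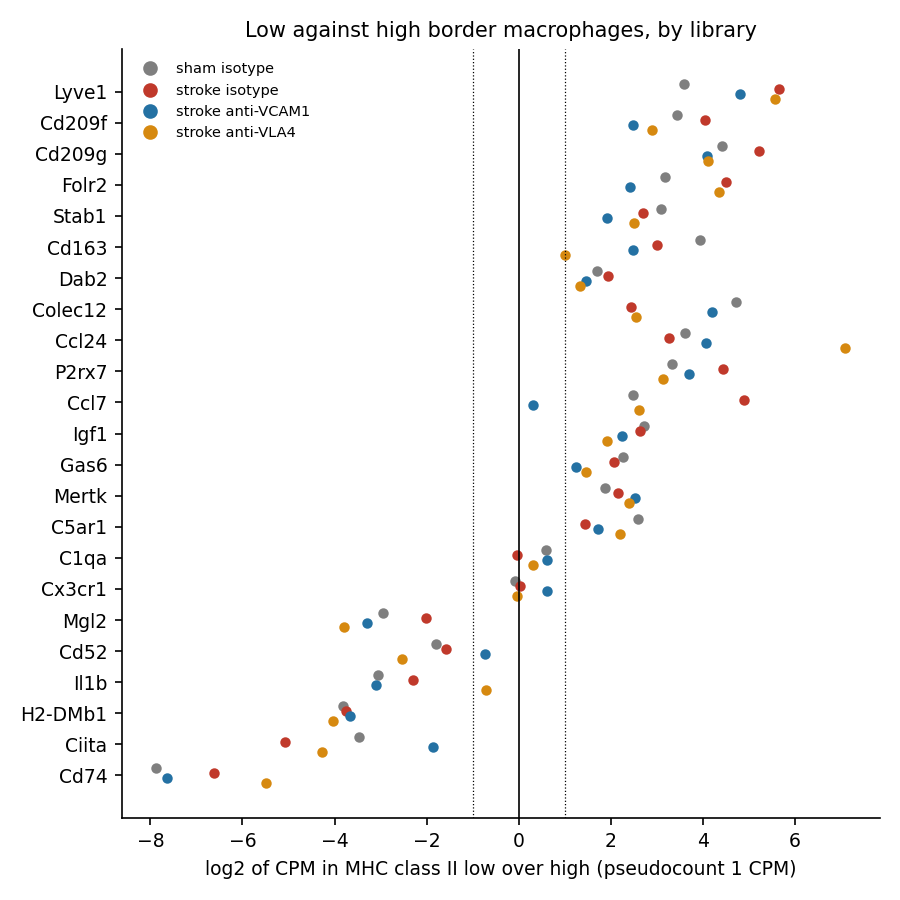
Log2 ratio of CPM (pseudocount 1) in MHC class II low over high border macrophages for 23 genes, 1 point per library, with dotted lines at 2-fold. A class with no UMI stands at 3 counts. The 15 genes from Lyve1 to C5ar1 lie right of 0, and H2-DMb1, Ciita and Cd74 left of 0, in all 4 libraries.

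Vcam1, whose protein one of the antibodies binds, was measured in the members themselves. It was at 540 CPM in sham, 553 in the stroke control, 835 in anti-VCAM1 and 773 in anti-VLA4, and 18 of 33, 25 of 60, 9 of 17 and 16 of 29 members held a UMI. In the high class it was at 163, 115, 61.4 and 503 CPM. Thinned to 1000 UMIs, 25% to 37.0% of members held a Vcam1 UMI, against 0% to 15.2% of high cells, 2.20% to 2.83% of microglia and 0.682% to 3.55% of endothelial barcodes. The log2 ratio was 0.03 (-0.38 to 0.46) for the stroke control over sham. For anti-VCAM1 over the stroke control it was 0.59 (0.17 to 1.01), which came to -0.12 without the cell richest in Vcam1 in each library. For anti-VLA4 over the stroke control it was 0.48 (0.07 to 0.88). Without the monocyte-rich members Vcam1 was at 589, 658, 1036 and 773 CPM in the 4 libraries, so the stroke control lay nearer to anti-VLA4. The VLA4 genes were lower and near the same in both classes, with Itga4 at 281, 195, 263 and 168 CPM and Itgb1 at 340, 273, 320 and 307 CPM in members. For Itga4 and Itgb1 the intervals of all 3 ratios between libraries held 0.

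How many members each library held was compared next. They were 2.16% of kept barcodes in sham (33 of 1525, exact interval 1.49% to 3.03%) and 2.10% in the stroke control (60 of 2856, 1.61% to 2.70%). In anti-VCAM1 they were 0.360% (17 of 4720, 0.210% to 0.576%), and in anti-VLA4 0.458% (29 of 6333, 0.307% to 0.657%). The isotype libraries overlapped, and both blockade libraries lay below them. The log2 ratio was -0.04 (-0.68 to 0.62) for the stroke control over sham, -2.54 (-3.41 to -1.75) for anti-VCAM1 over the stroke control and -2.20 (-2.89 to -1.54) for anti-VLA4 over the same library, so both antibody comparisons share their control. Endothelial barcodes moved with this, and the 4 libraries held 545, 636, 2490 and 3263 by the rule, and cells were stained for CD31 and CD45 before loading, a step whose gates the labels do not give. Among leukocyte barcodes alone, members were 3.77%, 3.07%, 0.919% and 1.15%, and the ratios were -0.30, -1.74 and -1.41. MHC class II high cells showed a like pattern, at 3.02%, 2.14%, 0.530% and 0.537% of kept barcodes, with ratios of -2.01 and -1.99 for the antibodies.

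The share of members among border macrophages differed little between libraries. It was 41.8% of 79 cells in sham (30.8% to 53.4%), 49.6% of 121 in the stroke control (40.4% to 58.8%), 40.5% of 42 in anti-VCAM1 (25.6% to 56.7%) and 46.0% of 63 in anti-VLA4 (33.4% to 59.1%). All 4 intervals overlapped, and at this number of cells no difference was detectable. In these libraries fewer cells of a type and a different yield from the tissue cannot be told apart.

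**Figure D4:**
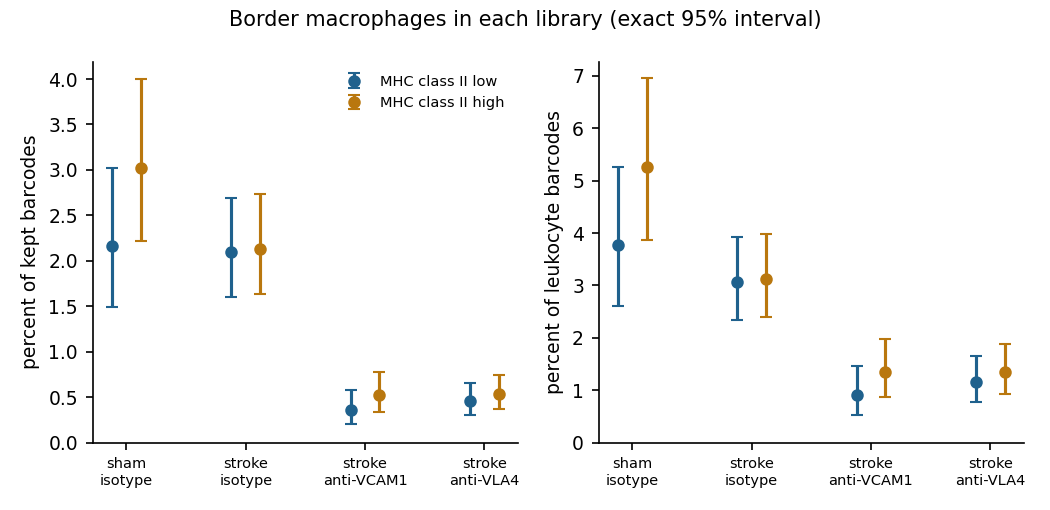
Percent of kept barcodes (left) and of leukocyte barcodes (right) that were MHC class II low (blue) or high (orange) border macrophages in each library, with exact 95% intervals. On both scales the anti-VCAM1 and anti-VLA4 libraries lie below the isotype libraries for both classes.

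Between libraries, a gene is called if it differed at least 2-fold over members, among genes with at least 50 UMIs in the pair. For the stroke control over sham, 1526 genes were measured, 47 were higher (3.08%) and 42 lower (2.75%), and the median log2 ratio of all was 0.02. Of 9 chemokine genes measured 3 were higher and 4 lower, with a median of -0.98, or 2 and 3 of 8 without the monocyte-rich members. The monocyte attractants Ccl2, Ccl7 and Ccl12 were lower in the stroke control. Ccl2 was at 2189 CPM in sham, 966 in the stroke control, 515 in anti-VCAM1 and 1602 in anti-VLA4, a log2 ratio of -1.18 (-1.43 to -0.93). Ccl7 was at 2292, 1098, 57.2 and 1714 CPM, a ratio of -1.06 (-1.30 to -0.82) that fell short of 2-fold at -0.94 without the monocyte-rich members, and Ccl12 at 2152, 861, 515 and 1360 CPM, a ratio of -1.32 (-1.58 to -1.06). UMIs of Ccl7 were found in 18 of 33 and 25 of 60 members, so its UMIs were spread over many cells. The neutrophil attractant Cxcl2 had the lowest chemokine ratio, -1.94 (-2.53 to -1.38), from 7 cells in each library. The other 2 higher chemokines, Ccl6 (1.09, and 0.19 without the monocyte-rich members) and Ccl8 (1.11), had 65 and 66 UMIs in the stroke control.

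Ccl4, a chemokine that attracts leukocytes, went the other way, at 340 CPM in 7 of 33 members of sham and 1312 CPM in 27 of 60 of the stroke control, a ratio of 1.94 (1.50 to 2.43). Ccl3, its close relative, was at 850 and 1040 CPM, a ratio of 0.29 (-0.03 to 0.62). Other genes lower in the stroke control were Cebpb, a transcription factor of inflammatory and wound-related genes, at 754 against 273 CPM (-1.46, -1.93 to -1.02), Nfkbia, the feedback inhibitor of NF-kappaB (-1.20, -1.68 to -0.73), the early response gene Ier3 (-1.15, -1.47 to -0.83, and just short of 2-fold without the monocyte-rich members) and the glucocorticoid-induced Tsc22d3 (-1.34, -1.92 to -0.78). Higher were Hpgd, which inactivates prostaglandins, at 266 and 654 CPM (1.29, 0.77 to 1.86), and the heat shock gene Hspa1a at 37.0 and 210 CPM (2.48, 1.20 to 4.19). Cd74 stood at 66.6 and 206 CPM (1.62, 0.60 to 2.84), a description since the members were limited on MHC class II. Of 19 genes known to respond to tissue dissociation 2 were higher and 1 lower, with a median of -0.19, and their part in these differences was not tested.

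Border identity genes were near level in this pair. Of 14 border genes outside the rule 0 were higher and 2 lower, Cd209b at -1.95 and Clec10a at -1.24, with a median of -0.13. Stab1 was at 1782 and 1784 CPM and Dab2, an endocytic adaptor, at 2596 and 2259. Scavenger receptors, complement and lysosome genes had no call of 8, 8 and 16, with medians of 0.04, -0.30 and 0.03. Plau, which activates plasminogen, was lower (-1.12, -1.85 to -0.42), at 281 and 128.5 CPM, and likewise fell just short of 2-fold without the monocyte-rich members. The iron exporter Slc40a1 was the one heme or iron gene called, at 1.28 (0.33 to 2.38).

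Monocyte genes were 5 of 7 higher in the stroke control, with a median of 1.23, and this rested on the 7 monocyte-rich members, 4 of them in that library. Plac8 was at 29.6 and 241.5 CPM, all of it in those cells. S100a6 had a ratio of 1.09 with the 7 cells and -4.12 without, the actin-binding Tmsb10 1.82 and -1.14, and fibronectin (Fn1) 1.23 and -1.16. Gm42418 had a ratio of 3.21, at 3483 and 32263 CPM, with 45.8% of its stroke control UMIs in 1 member. It is a predicted gene that overlaps ribosomal RNA sequence, and together with Lars2, which was also higher, at 199.7 and 502 CPM, it is reported as uncertain. Without the 7 cells 1313 genes were measured, and 44 were higher and 42 lower, of which 30 and 34 were called with them.

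**Figure D5:**
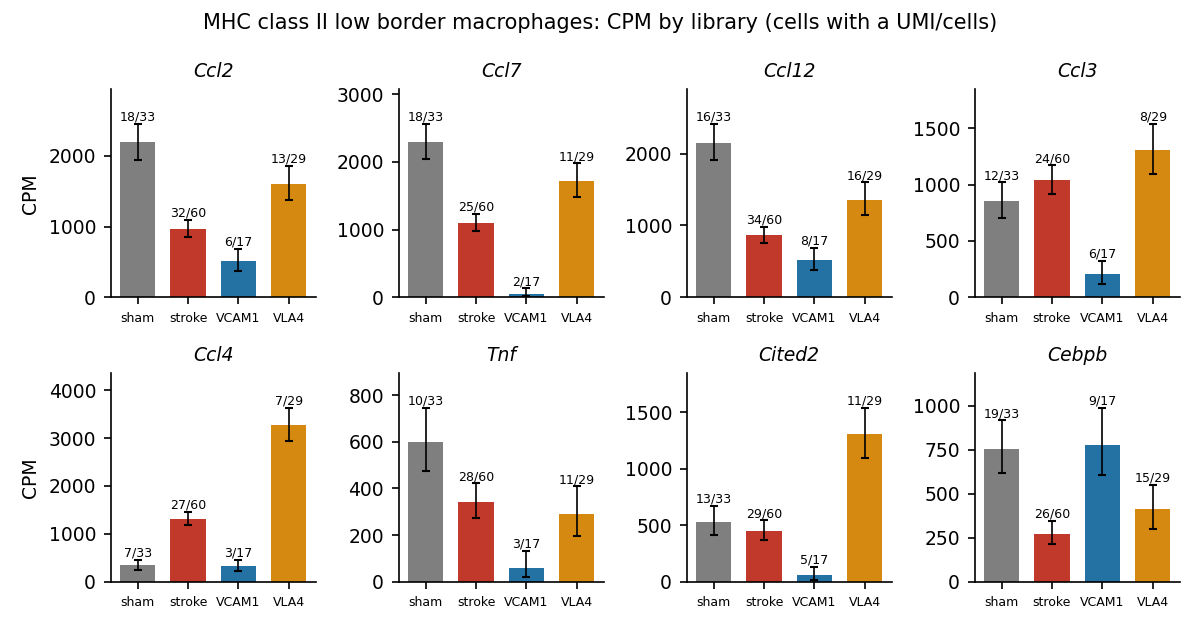
CPM of 8 genes in MHC class II low border macrophages of sham (sham), the stroke control (stroke), anti-VCAM1 (VCAM1) and anti-VLA4 (VLA4). Bars start at 0, error bars are exact 95% Poisson intervals of the summed UMIs, and the text gives members with a UMI over members. Ccl2, Ccl7, Ccl12, Ccl3, Tnf and Cited2 are lowest in anti-VCAM1.

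For anti-VCAM1 over the stroke control, 1329 genes were measured, of which 46 were higher (3.46%) and 80 lower (6.02%), with a median of 0.02. The 17 members of anti-VCAM1 make this the thinnest of the comparisons. Lower were 3 of 9 chemokines and 2 of 5 inflammatory genes measured, Tnf and Il1b (-1.05), with none of either list higher and medians of -0.74 and -0.72. Ccl7 was at 1098 and 57.2 CPM, the latter 5 UMIs in 2 members, a ratio of -4.24 (-5.90 to -3.02). Ccl3 was at 1040 and 206 CPM (-2.33, -3.11 to -1.65) and Ccl4 at 1312 and 320 CPM (-2.03, -2.65 to -1.48), with 28 Ccl4 UMIs in 3 of 17 members. Tnf was at 343 and 57.2 CPM, 5 UMIs in 3 members, a ratio of -2.56 (-4.24 to -1.31). Ccl2 (-0.91, -1.40 to -0.45) and Ccl12 (-0.74, -1.24 to -0.27) lay on the same side without reaching 2-fold. Cited2, a transcriptional coregulator, was at 452 and 57.2 CPM, a ratio of -2.96 (-4.63 to -1.72).

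Early response genes lay on the same side. Jun was at 3953 and 2070 CPM (-0.93), Atf3 at 1640 and 824 (-0.99) and Fos at 3264 and 2139 (-0.61), and of 19 dissociation genes 0 were higher and 1 lower, with a median of -0.43, or 4 lower with a median of -0.67 without the monocyte-rich members. Their part in the lower chemokine levels was not tested.

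Border identity genes were lower in anti-VCAM1 too. Of 11 measured 4 were lower and 0 higher, 0 lay above 0, and the median was -0.87, or -0.81 without the monocyte-rich members. Cd163 was at 464 and 206 CPM (-1.17, -1.97 to -0.45), Lyve1 at 389 and 172 (-1.18, -2.07 to -0.39), with 86.7% of the anti-VCAM1 UMIs of Lyve1 in 1 cell. The lectin Clec4n was at 257 and 45.8 CPM (-2.46, -4.41 to -1.07) and Igfbp4 at a ratio of -1.57 (-3.10 to -0.37). Stab1 (-0.87) and Dab2 (-0.97) lay on the same side just short of 2-fold, with both intervals below 0. Cp, the copper-carrying ferroxidase, was at 561 and 229 CPM (-1.29, -2.05 to -0.61).

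Among genes higher in anti-VCAM1, single cells weighed much in several. Of 10 lipid genes 3 were higher and 1 lower, with a median of 0.42, and of 16 lysosome genes 1 was higher. Fabp5, a fatty acid carrier, had a ratio of 3.82 that came to -0.72 without the richest cells, because 1 member of anti-VCAM1 held all 155 UMIs. The same was so in part for Lgals3, at 432 and 2059 CPM, 2.25 with and 0.55 without the richest cells, for the ferritin chain Fth1, 1.12 and 0.07, and for Cd68, 1.05 and 0.08. Tgfbr1, a TGF-beta receptor, held up at 1.16 and 1.43. Plau was at 128.5 and 400 CPM, 1.63 (0.91 to 2.37) and 1.70 without the richest cells. Cebpb was at 273 and 778 CPM, a ratio of 1.51 (1.01 to 2.01) that came to 0.23 without the monocyte-rich members. Vim (2.16), Crip1 (1.68) and Pfn1 (1.55) had their intervals above 0, but Crip1 turned to -1.69 when the border marker sum had to be 10 or more, and Actg1 (1.02) to -0.43 when 3 of 4 border markers were required.

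For anti-VLA4 over the stroke control, 1378 genes were measured, of which 26 were higher (1.89%) and 58 lower (4.21%), with a median of -0.02. Chemokine and inflammatory genes stood higher, 3 of 9 with 1 lower and 3 of 6 with 1 lower, with medians of 0.66 and 0.42. Ccl4 was at 3269 CPM against 1312, in 7 of 29 members (1.32, 1.10 to 1.54). Cxcl2 had the highest chemokine ratio, 3.07 (2.56 to 3.62), at 1313 against 156 CPM, but its 141 UMIs lay in 3 cells, 83.7% of them in 1. Il1b was at 717 against 214 CPM, 77 UMIs in 4 cells (1.74, 1.23 to 2.27), and Nfkbia, at 1.45, came to 0.32 without the richest cells. Ccl2, Ccl7 and Ccl12 had ratios of 0.73, 0.64 and 0.66, short of 2-fold. Cited2 was at 1304 against 452 CPM in 11 of 29 members (1.53, 1.16 to 1.90). Ccl24 had a ratio of 1.73 that turned to -0.59 without the richest cells.

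Border and complement genes were on the higher side in anti-VLA4, less so without the monocyte-rich members. Without them the median was 0.28 over 12 border genes, with 2 higher. The complement median was 0.52 with those members and 0.27 over 7 genes without them, with 0 called. Of 12 border genes 2 were higher and 0 lower, with a median of 0.52, and the 2 were Cd209f at 726 against 241 CPM in 16 of 29 members (1.58, 1.09 to 2.09) and Cd209g at 317 against 121 CPM (1.38, 0.65 to 2.14). Of 8 complement genes 1 was higher, C1qc at 3529 against 1749 CPM (1.01, 0.81 to 1.21, and 0.77 without the monocyte-rich members). C1qa, at 5290 against 3233 CPM, and C1qb, at 3529 against 1869 CPM, stood beside it at 0.71 and 0.92. Plau was higher here too, at 326 against 128.5 CPM (1.34, 0.61 to 2.07), in 6 of 29 members, and Cp lower, at 261 against 561 CPM (-1.10, -1.74 to -0.51). Bst2, an interferon-induced gene, was at 1006 against 471 CPM in 22 of 29 members (1.09, 0.71 to 1.48), the 1 of 5 interferon genes called. Without the monocyte-rich members Bst2 was at 0.90 and 2 others were called.

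Monocyte genes were 5 of 6 lower in anti-VLA4, with a median of -3.15, since that library held none of the 7 monocyte-rich members and no UMI of any of the 7 markers. The exact upper bound of its share of members with such a UMI, 0 of 29, was 11.9%, which holds the 6.67% of the stroke control. The ratios of Tmsb10 (-4.39), Crip1 (-2.04) and Cd52 (-1.44) came to 0.99, 1.57 and 0.58 without the 7 cells. Gm42418 (-3.12) and Lars2 (-1.84) were lower here and share the doubt given above, and this comparison uses the same stroke control library. Without the 7 cells 1212 genes were measured, and 35 were higher and 51 lower, of which 17 and 28 were called with them.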

How the data were processed

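The deposited files held raw UMI counts per gene and barcode for each library, written by the authors using version 7.0.1 of Cell Ranger per the file headers. The submitters' processing notes name Cell Ranger 6.0.0, Seurat 4.3.0.1, mm10 and GRCh38; the steps these served are not given in the sources used here. The tables held 32285 genes. The lowest barcode totals were 500 to 510 UMIs, and total counts ran from 10008987 in sham to 34721356 in anti-VLA4. Groups came from the sample titles. The filters kept 1525, 2856, 4720 and 6333 barcodes.

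Member counts were summed within a library and scaled to CPM. Log2 ratios took a pseudocount of 1 CPM, and a side with 0 UMIs was set to 3 counts, which makes the ratio a bound. Intervals are Clopper-Pearson for shares, exact Poisson for CPM and conditional binomial for ratios. PCR and pooling of mice are outside what they cover. Leukocyte barcodes had at least 3 UMIs of Ptprc, Laptm5, Tyrobp and Coro1a and under 10 of the endothelial genes. The code was checked on simulated counts. Scrublet (scanpy 1.11.5, expected rate 0.05) ran on each library; sums and intervals came from numpy 2.4.6 with scipy 1.17.1, tables from pandas 2.3.3 and plots from matplotlib 3.10.9, under Python 3.11.15.

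Genes were named by a rule. It took the border and MHC class II genes of the choice with Vcam1, Itga4 and Itgb1. For each comparison it took the 5 highest and the 5 lowest ratios among genes with 100 UMIs or more that were found in 10 members or more. For low against high it took the 10 genes of each direction with the largest smallest fold over libraries. Of each of 19 lists (309 genes, 1 not matched) it took the 4 with most UMIs and up to 2 with the largest ratio. Mitochondrial, ribosomal and haemoglobin genes, and any gene more than 10 times higher in endothelial, microglial or other leukocyte barcodes, were not ranked. Cbr2, Cd209b, Clec10a, Ctsl, Igfbp4, Ncoa4 and Slc40a1 fall outside the rule and are named since their list's count was small. Some genes counted in the lists are not reported here by name. The members and the lists were chosen with earlier results of these data known. Alternatives varied the cell filters, the border and MHC class II limits of the rule, monocyte-rich members, thinning, scaling and the UMI minimum. The microglial and endothelial limits were not varied on their own. They were only scaled down when the rule was applied to barcodes thinned to 2000 UMIs.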

Additional observations from a re-analysis of the deposited data

How the results depend on the processing

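With leukocyte barcodes as the denominator the shares were 3.77%, 3.07%, 0.919% and 1.15% in sham, the stroke control, anti-VCAM1 and anti-VLA4, and with microglia 5.67%, 5.14%, 1.15% and 1.48%; the leukocyte log2 ratios were -1.74 for anti-VCAM1 and -1.41 for anti-VLA4. Without monocyte-rich barcodes, members were 54.2% of border macrophages in sham. Counts of called genes moved most with settings that change how many genes are measured. For the stroke control over sham, 6 were higher and 4 lower after thinning cells to 1000 UMIs, 237 and 167 with a minimum of 20 UMIs and 11 and 11 with 100. For anti-VCAM1 these were 6 and 20, 211 and 319, and 16 and 27, and 23 and 52 when 3 border markers were required. For anti-VLA4 they were 16 and 9, 131 and 313, and 13 and 12, and 110 were lower by the mean of per-cell CPM. Low over high gave 71 and 53 with a border sum of 10 or more, 71 and 62 with 3 border markers, 72 and 55 without monocyte-rich barcodes, 25 and 33 after thinning and 68 and 58 by per-cell CPM. Leaving out 1 library at a time gave 135 to 202 higher and 103 to 150 lower. Between 2 libraries nothing can be left out.

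Signs turned in few genes. Without monocyte-rich members, Tmsb10 was -1.14, Fn1 -1.16 and S100a6 -4.12 for the stroke control over sham, and Tmsb10 0.99, Crip1 1.57 and Cd52 0.58 for anti-VLA4. With 3 border markers required, these 3 were 1.25, 1.67 and 0.96 for anti-VLA4, and Actg1 was -0.43 and Cd68 -0.082 for anti-VCAM1. Crip1 was -1.69 for anti-VCAM1 with a border sum of 10 or more. Without the richest cells Fabp5 was -0.72 for anti-VCAM1 and Ccl24 -0.59 for anti-VLA4. Other than by construction, the cause was not tested. Of the named called genes, 9 of 20, 12 of 31 and 4 of 27 stayed past 2-fold in the same direction under all 13 alternatives, and 1, 0 and 4 more did so under the 10 to 12 that gave them a value. No paired analysis was possible because each group is 1 library.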

Other observations

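Other gene groups of the members had few genes measured. Over all genes, 3.08% were higher and 2.75% lower in the stroke control over sham. The shares were 3.46% and 6.02% for anti-VCAM1, and 1.89% and 4.21% for anti-VLA4. At these shares, 0 or 1 call among 4 to 6 genes says little about a group. MHC class I genes had 0 calls of 4 measured in each of the comparisons, with median log2 ratios of -0.05 for the stroke control over sham, 0.27 for anti-VCAM1 and 0.44 for anti-VLA4. Interferon-stimulated genes, which respond to interferon signalling, had 0 of 5 called in the first and second and Bst2 alone in the third, with medians of -0.35, -0.28 and 0.20. Adhesion and integrin genes had 0 of 5, 1 of 5 and 0 of 6, the 1 being Itgb5, higher in anti-VCAM1 (1.19, 0.61 to 1.78). Among macrophage transcription factors, Klf2 (1.11) and Klf4 (1.36) were higher in anti-VCAM1. Without monocyte-rich members they came to 0.19 and 0.90, and 0 of 10 such factors were higher and 1 lower.

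The interferon gamma receptor chain Ifngr1 was at 300 CPM in the stroke control and 121 CPM in anti-VLA4 (-1.30, -2.28 to -0.45, and -0.99 without monocyte-rich members). Trem2, a lipid-sensing receptor, was at 304 and 615 CPM in the same libraries (1.01, 0.52 to 1.51, and 0.88 without monocyte-rich members), found in 20 of 29 members of anti-VLA4. Gpnmb, a gene of lipid-laden macrophages, had a ratio of 1.79 there from 1 cell. Compared with high cells, members had MHC class I genes at a median of -0.49 and interferon-stimulated genes at -0.62, with 0 of 14 and 0 of 21 called. Over all genes of that comparison 2.44% were called higher and 1.88% lower.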
